A study of Mus musculus with 12 samples.

Results

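The genes described here are 7 of the 7525 gene identifiers in the table of RNA immunoprecipitation ratios and of the 55416 annotated genes of the input counts. They were picked by identifier because a row of theirs had one of the clearest WT over KO differences in immunoprecipitated RNA, and because none of them is known for a role in meiosis. The genes were the mouse homolog of Kiaa0100 (ENSMUSG00000010277), Cdc42bpa (ENSMUSG00000026490), Bfar (ENSMUSG00000022684), Ugt8a (ENSMUSG00000032854), Itih5 (ENSMUSG00000025780), Ofd1 (ENSMUSG00000040586) and Grk2 (ENSMUSG00000024858). All 7 lay on the chromosome given with the identifier, so that none was dropped. The immunoprecipitation values below chose the genes and are given as a description, without a test.

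RNA came from whole ovaries of mouse embryos at E16.5, with the strain given as B6.129P2-Fmr1tm1Cgr/J for KO and WT alike, either Fmr1 knockout (KO) or wild type (WT). Each sample pooled 5 pairs of ovaries. For each genotype there were 3 libraries of RNA pulled down with the anti-FMRP antibody ab17722 (RNA immunoprecipitation, RIP) and 3 input libraries of homogenate RNA with no antibody. The labels do not say which pools share a litter or whether KO ovaries were homozygous, and a whole ovary holds germ cells together with pregranulosa, stromal, vascular and blood cells.

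FMRP, the product of Fmr1, is an RNA-binding protein that associates with many mRNAs and is best known for holding back their translation in neurons. In an immunoprecipitation, KO tissue serves as the background, because RNA recovered without the protein sticks to the antibody or the beads. The 7 genes share no pathway. Their products act in lipid transfer between membranes (Kiaa0100), in Cdc42 signalling to the cytoskeleton (Cdc42bpa), in restraint of cell death at the endoplasmic reticulum (Bfar), in galactolipid synthesis (Ugt8a), in the hyaluronan matrix (Itih5), at the centriole and the base of the cilium (Ofd1), and in the shut-off of G protein-coupled receptors (Grk2).

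Input libraries held 18880238 to 25707718 counted reads. In them Fmr1 was the check on the labels, at 101 ± 19.8 CPM (counts scaled to library size) in KO and 213 ± 8.47 CPM in WT (± SD, 3 libraries each). Markers of the fetal ovary were present: the germ cell helicase Ddx4 averaged 55.1 ± 8.96 CPM in KO libraries and 43.9 ± 7.81 CPM in WT libraries, and Foxl2, the pregranulosa factor, 49.0 ± 7.17 CPM in KO libraries and 50.8 ± 3.96 CPM in WT libraries. The oocyte marker Dppa3 was close to 0, with a mean of 0.284 CPM over KO and 0.231 CPM over WT. Of the Sertoli cell genes, the hormone Amh had 1.28 CPM in KO libraries and 0.872 CPM in WT libraries. Sox9 was higher than Amh, its KO libraries averaging 9.86 CPM and its WT libraries 10.1 CPM. For Dmrt1 the KO libraries averaged 1.08 CPM and the WT libraries 1.57 CPM. The RIP libraries did not split by genotype in their upper range: the 99th percentile of the ratios lay at 10.4, 25.1 and 17.1 for the KO libraries, against 21.7, 10.3 and 11.6 for the WT libraries.

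The RIP table gives a fold enrichment per row and library, a ratio made by the authors, and a gene can have several rows. The 7 genes had 27 rows of the 14447. The WT mean exceeded the KO mean in 22 of these rows, as it did in 49.1% of all rows of the table. In 15 of the 27, all 3 WT values lay above all 3 KO values. Over all rows, 8.4% had WT above KO without overlap and 6.75% had KO above WT without overlap. Since the genes were chosen for this contrast, nothing is read from the share among them. Each of the 7 genes had at least 1 row with WT above KO, no overlap and a ratio above 1.5, as 4.28% of all genes in the table did. By the ratio alone, 4.35% of all rows were above 1.5. In 1 row, the second of Grk2, the KO values all lay above the WT values. Only rows with a mean of at least 1 were tested for a difference, which left out the row of Fmr1. Of these 14365 rows, 0 (0.0%) passed at an adjusted p under 0.05 (limma), and 1272 had an unadjusted p under 0.05.

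Taking for each gene the row with the highest ratio of WT to KO means, the ratios were 3.50 for Ofd1, 3.05 for Ugt8a, 2.50 for the Kiaa0100 homolog, 1.98 for Grk2, 1.96 for Bfar, 1.88 for Itih5 and 1.79 for Cdc42bpa. Among all 14447 rows, these rows ranked 7, 12, 24, 88, 96, 126 and 164 by that ratio, in the same order. The order of the 7 genes is not settled by the libraries. With each library left out in turn, Cdc42bpa ranged from 1.71 to 1.86, Itih5 from 1.80 to 1.96, Bfar from 1.84 to 2.07 and Grk2 from 1.83 to 2.09, so that these ranges overlapped. Ofd1 ranged from 2.73 to 3.89, Ugt8a from 2.57 to 3.55 and the Kiaa0100 homolog from 1.95 to 3.41, and these also overlapped with each other. The range of the Kiaa0100 homolog overlapped those of Grk2, Bfar and Itih5 too. The lowest value of Ofd1, of Ugt8a and of the Kiaa0100 homolog came without WT replicate 1.

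**Figure D1:**
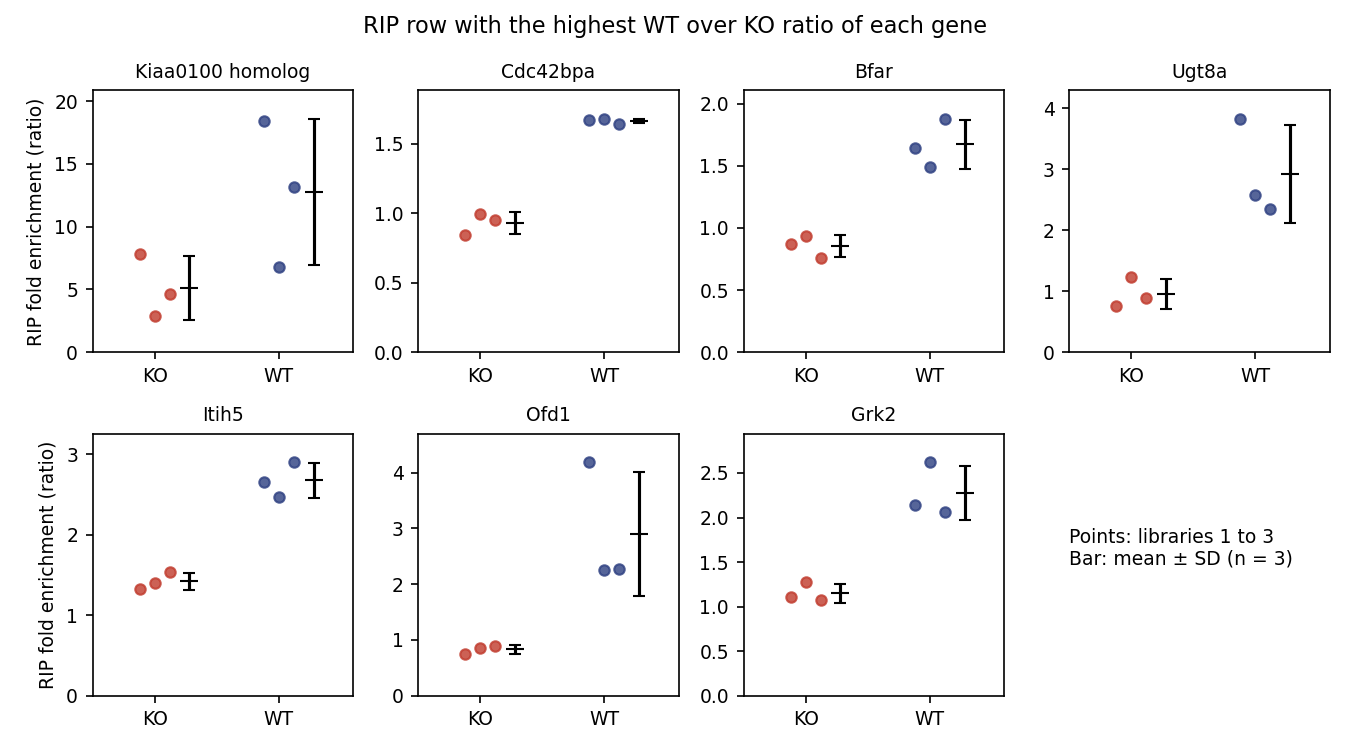
RIP fold enrichment (deposited ratio, linear axis from 0) in each KO and WT library for the row of each gene with the highest WT over KO ratio of means. Points are libraries and bars are mean ± SD (n = 3). The groups are apart for every gene except the Kiaa0100 homolog, where KO replicate 1 at 7.85 lies above WT replicate 2 at 6.79.

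Ofd1 encodes a protein of centrioles and centriolar satellites that is needed to build cilia. The gene spans 165173029 to 165223700 on the minus strand of the X chromosome, with 23 exon blocks. Its first row had ratios of 0.744, 0.861 and 0.884 in KO libraries, against 4.19, 2.26 and 2.27 in WT libraries, which gave means of 0.830 ± 0.075 in KO and 2.91 ± 1.11 in WT (± SD, 3 libraries each). The groups were apart by 2.56-fold at their nearest values, and WT replicate 1 stood well above the other WT libraries. Only 6 rows of the table had a higher ratio of means. The second row of Ofd1 had 1.09, 1.52 and 1.42 in KO and 2.17, 2.43 and 1.51 in WT, with a ratio of 1.52. There the lowest WT value, in replicate 3, lay just under the highest KO value, so the groups overlapped.

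Ugt8a encodes the enzyme that joins galactose to ceramide, the step that makes the galactolipids of myelin. It spans 125658920 to 125732268 on the minus strand of chromosome 3, with 6 exon blocks. Its first row stood at 0.758, 1.23 and 0.884 in KO and at 3.83, 2.58 and 2.34 in WT, with means of 0.956 ± 0.243 and 2.92 ± 0.798 (± SD, 3 libraries each). The groups did not overlap, and again WT replicate 1 was the highest. The second row had 1.07, 1.68 and 0.639 in KO and 1.95, 1.63 and 1.97 in WT, a ratio of 1.63. There KO replicate 2 lay above WT replicate 2.

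Bfar encodes a ubiquitin ligase of the endoplasmic reticulum that restrains apoptosis, and Cdc42bpa encodes a kinase that binds active Cdc42 and acts on myosin. Each had a single row. Bfar (chromosome 16, 13489722 to 13521476, plus strand, 8 exon blocks) had 0.869, 0.933 and 0.755 in KO and 1.65, 1.49 and 1.88 in WT, with means of 0.852 ± 0.090 and 1.67 ± 0.196. Cdc42bpa (chromosome 1, 179788037 to 179993168, plus strand, 42 exon blocks) had 0.842, 0.994 and 0.947 in KO and 1.67, 1.67 and 1.64 in WT, with means of 0.928 ± 0.078 and 1.66 ± 0.018 (± SD, 3 libraries each). The 3 WT libraries were closer to each other for Cdc42bpa than for any other of the 7 rows.

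Itih5, a heavy chain of the inter-alpha-trypsin inhibitor family that binds hyaluronan, spans 10158382 to 10261340 on the plus strand of chromosome 2, with 14 exon blocks. Its 5 rows did not move together. The first had 1.33, 1.40 and 1.53 in KO and 2.66, 2.47 and 2.90 in WT, with means of 1.42 ± 0.105 and 2.68 ± 0.219 and no overlap. In the other 4 rows the groups overlapped (the second row had 1.54, 1.56 and 1.77 in KO and 1.13, 1.66 and 1.28 in WT), and the ratios of WT to KO means were 0.836, 1.23, 0.891 and 0.995. The median over the 5 rows was 0.995, close to the median of 0.996 over all rows of the table.

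Grk2 encodes the kinase that phosphorylates active G protein-coupled receptors so that arrestins can bind them. It spans 4336029 to 4356250 on the minus strand of chromosome 19, with 19 exon blocks. Its 2 rows pointed in opposite directions, each without overlap. The first had 1.10, 1.27 and 1.08 in KO and 2.14, 2.62 and 2.07 in WT, with means of 1.15 ± 0.108 and 2.28 ± 0.301. The second had 2.00, 2.30 and 1.51 in KO and 1.03, 1.23 and 1.11 in WT, with means of 1.93 ± 0.400 and 1.13 ± 0.101 and a ratio of 0.582 (± SD, 3 libraries each). The position of either row on the transcript is not stated in the sources.

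**Figure D2:**
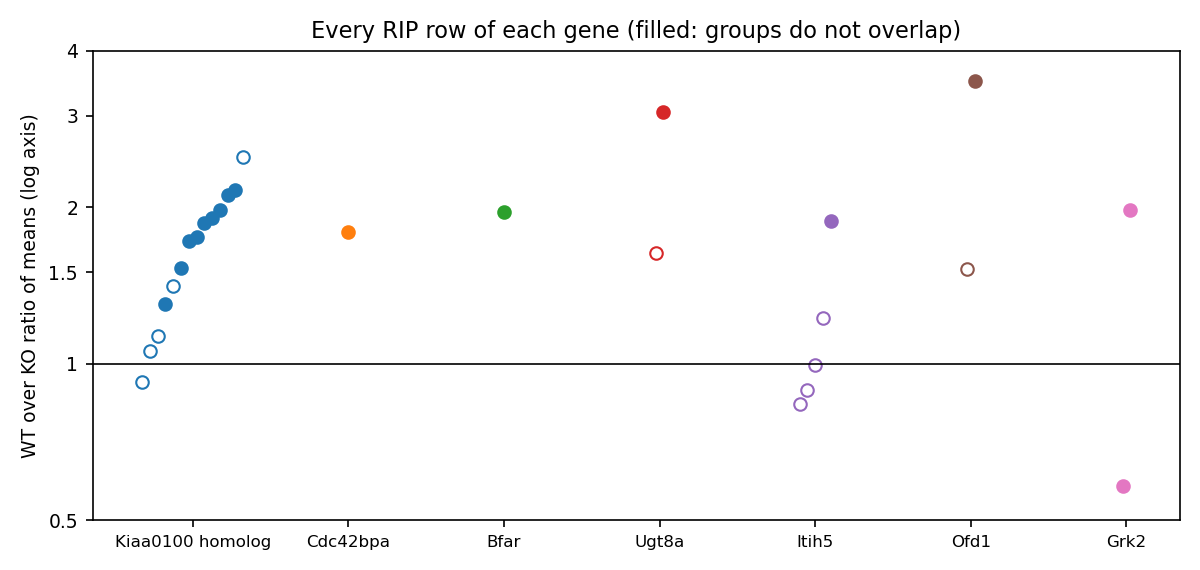
Ratio of the WT mean to the KO mean (log axis, line at 1) for every RIP row of each gene, in the order of the ratio within a gene. Filled circles are rows whose groups do not overlap. The Kiaa0100 homolog has 13 of 14 rows above 1, Itih5 has 2 of 5, and Grk2 has 1 row on each side.

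The homolog of Kiaa0100, named 2610507B11Rik in the RefSeq table, encodes a very large protein of the bridge-like family, whose members carry lipids between membranes. It spans 78152578 to 78181449 on the plus strand of chromosome 11, with 38 exon blocks. It had 14 rows, and 18 genes of the table, itself included, had at least as many, up to 54. The WT mean was higher in 13 of the 14, and in 9 the groups did not overlap. The median ratio was 1.74. Among the 63 genes with 10 or more rows, it had the highest median ratio, where the median of these genes was 1.00. The share of its rows with WT above KO without overlap was 64.3%, and 3 of these 63 genes, itself included, had a share at least as high. The gene was chosen for this contrast, so its place among the 63 is a description only. Its rows come from the same libraries and do not count as separate evidence.

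Single rows of the Kiaa0100 homolog covered a wide range of levels. The fourth row had 1.48, 1.44 and 1.78 in KO and 4.08, 3.06 and 3.01 in WT, a ratio of 2.16. The first row had 1.08, 1.37 and 1.24 in KO and 2.84, 2.56 and 2.39 in WT, a ratio of 2.11. The sixth row had the lowest group means, at 0.803, 0.936 and 0.995 in KO and 2.07, 1.52 and 1.63 in WT. In each of these rows every WT library lay above every KO library. Rows 2, 3, 5, 7, 8 and 10 were also without overlap, with ratios of 1.98, 1.53, 1.73, 1.76, 1.87 and 1.30. In row 10 the nearest values, 1.52 in KO replicate 1 and 1.59 in WT replicate 3, almost met.

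The groups overlapped in the other 5 rows. The ninth row had 7.85, 2.88 and 4.62 in KO and 18.4, 6.79 and 13.2 in WT, a ratio of 2.50. The fourteenth row had 23.7, 5.37 and 6.90 in KO and 11.6, 14.8 and 6.83 in WT, a ratio of 0.924. That ratio was 1.81 without KO replicate 1, the library with the highest value, and 1.10 without WT replicate 3. The eleventh row, at 4.68, 3.50 and 5.79 in KO and 7.62, 4.44 and 7.64 in WT, had a ratio of 1.41. The ratio of the twelfth row, 1.13, was 0.985 without KO replicate 1. The ratio of the thirteenth row, 1.06, was 0.971 without KO replicate 2 and 0.952 without WT replicate 1. The ninth row is also listed, with the same 6 values, for ENSMUSG00000086586, a gene of 329 bp on the opposite strand inside the Kiaa0100 homolog (78169564 to 78169892), which had 0.0665 CPM in KO input and 0.0145 CPM in WT input. The other 26 rows of the 7 genes each had a set of 6 values that no other row repeated.

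**Figure D3:**
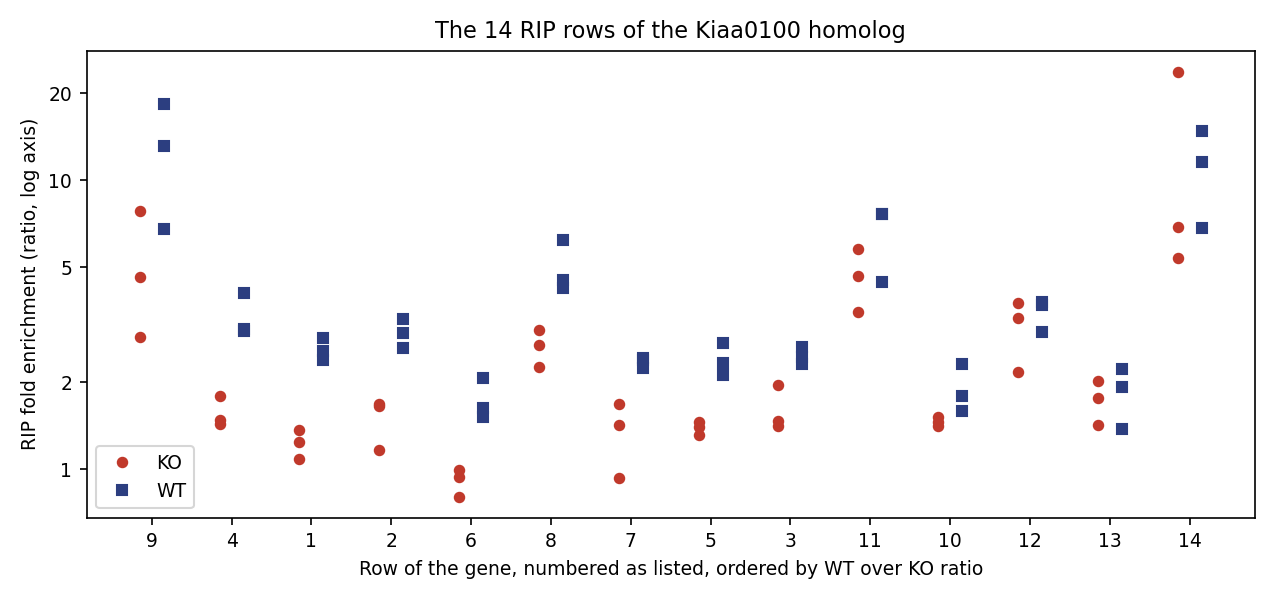
RIP fold enrichment (log axis) of the 14 rows of the Kiaa0100 homolog in KO libraries (circles) and WT libraries (squares), ordered from left to right by the WT over KO ratio of means. In 9 rows all WT values lie above all KO values, while row 14 at the right has its highest value, 23.7, in KO replicate 1.

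The highest-ratio rows were also placed among all rows of the same library, from the lowest value to the highest. In KO libraries the first row of Cdc42bpa lay at percentiles 1.3, 2.9 and 3.3 of the rows of the same library, and in WT libraries at 43.3, 45.3 and 43.8. Bfar lay at 1.8, 1.7 and 0.5 in KO and at 41.2, 30.9 and 59.8 in WT. Ugt8a, at 0.5, 12.3 and 2.0 in KO and at 89.3, 81.6 and 77.0 in WT, and Ofd1 went further apart. Ofd1 lay at 0.5, 0.9 and 2.0 in KO and at 90.9, 74.4 and 75.2 in WT. Itih5 lay higher in KO, at 22.8, 23.4 and 37.1, and at 79.9, 79.7 and 85.7 in WT, while Grk2 lay at 9.2, 15.1 and 7.6 in KO and at 68.5, 82.4 and 68.7 in WT. The means of KO were under 1 for Cdc42bpa, Bfar, Ugt8a and Ofd1, as they were in 1.89% of all rows. The WT means of Bfar and Cdc42bpa, 1.67 and 1.66, lay under the median WT mean of the table, 1.77. The ninth row of the Kiaa0100 homolog lay high in both, at percentiles 98.3, 83.1 and 92.6 in KO and 98.7, 97.6 and 99.3 in WT. These positions follow in part from the choice of rows with a large ratio.

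**Figure D4:**
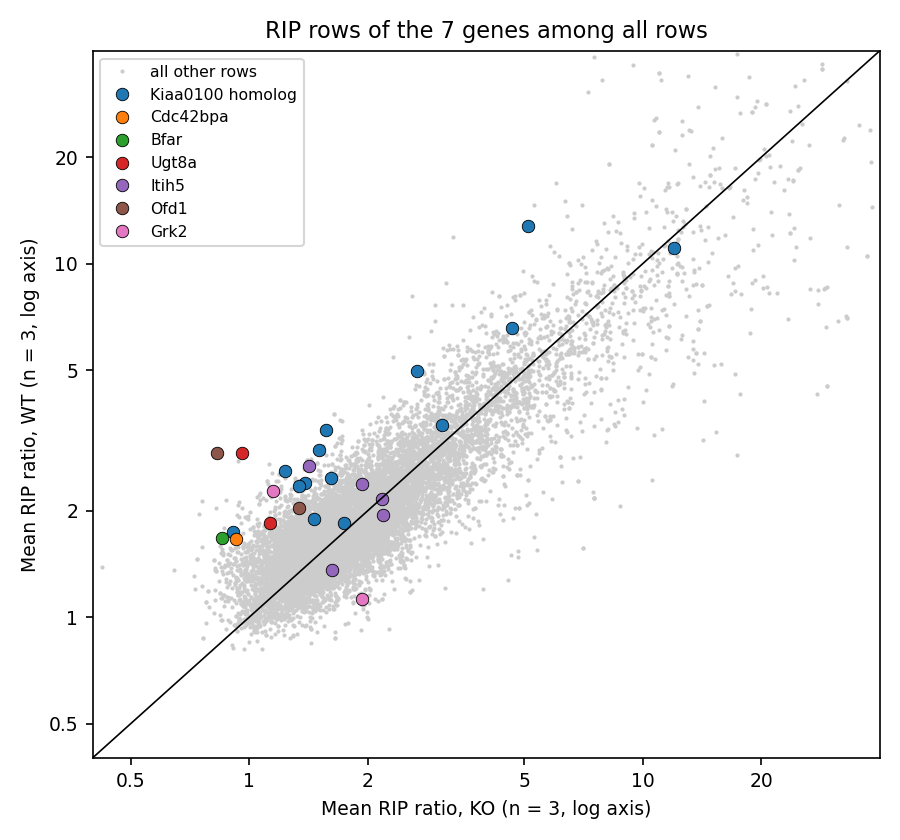
Mean RIP fold enrichment in KO (x, log axis) and in WT (y, log axis) for all rows (grey, with 62 rows outside the axes) and for the 27 rows of the 7 genes (coloured). The line marks equal means. The first rows of Ofd1 and Ugt8a lie at the upper left edge of the cloud, and those of Bfar and Cdc42bpa at its left edge.

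The Fmr1 row itself had 0.388, 0.439 and 0.439 in KO and 1.34, 1.43 and 1.40 in WT, a ratio of 3.30. The ratios of the first rows of Ofd1 and Ugt8a, with a library left out, ranged from below this value to above it. The Fmr1 row, with means of 0.422 in KO and 1.39 in WT, was not tested, because its mean over all libraries was under 1. Fmr1 input RNA also fell in KO (KO over WT -1.08 on the log2 scale, SE 0.11; edgeR, adjusted p = 0.00775); of the 7 genes, 0 passed that test.

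The precision of the ratios is not known, since no read numbers come with them, but their values repeat. After rows listed more than once were counted once, 38.9% to 44.2% of the values in a library recurred, to 5 decimals, in another row of that library. The most frequent values of a library stood in simple proportions: in KO replicate 2 the most frequent was 1.53395, and the next were 3.0679, which is 2.0 times as large, and 2.04527, which is 1.33 times as large. Among the 7 genes, 83 of 162 values recurred in this way. The first row of Grk2 had the value 1.10397 in KO replicate 1, which stood in 60 rows, and 2.14283 in WT replicate 1, which stood in 29 rows. In KO replicate 3 the first rows of Ugt8a and Ofd1 had the same value, 0.88413, found in 23 rows. How many reads stand behind a value is not known.

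The rows whose pattern over the 6 RIP libraries was most like the mean pattern of the 7 genes were sought among genes outside the set. They were rows of Cdh3, a cell adhesion protein (Pearson r = 0.999), Pskh1, a protein kinase (r = 0.993), Arhgap35, a GTPase-activating protein (r = 0.992), and Daxx, a histone chaperone (r = 0.987). Each r rests on 6 libraries and on a choice among all rows of the table, so it is a description. Cdh3 had a mean ratio of 2.94 ± 0.017 in KO and 4.12 ± 0.301 in WT, while Pskh1 had 0.996 ± 0.050 in KO and 1.55 ± 0.157 in WT (± SD, 3 libraries each). Their WT over KO ratios were 1.40 and 1.55, against 1.18 for Arhgap35 and 1.20 for Daxx. Each of the 7 genes entered this mean with its highest-ratio row alone, which for the Kiaa0100 homolog was the ninth of its 14 rows.

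Input RNA was tested for a difference between KO and WT. The genes were chosen by the RIP ratios, and whether the input level is part of those ratios is not known. Input counts of all 7 genes passed the filter on low counts. None passed the test (0 of 7, adjusted p from 0.810 to 0.998, edgeR's quasi-likelihood test over 23698 genes), where 0.0422% of all genes were called. In 1 of the 7, Ofd1, the unadjusted p was under 0.05, against 5.9% of all genes. The KO and WT values overlapped in all 7, where 10.9% of all genes had groups without overlap (5.22% with KO higher and 5.69% with KO lower). The median log2 change was -0.03, against -0.002 over all tested genes. With DESeq2 the 7 genes also gave 0 calls. In bulk tissue, fewer cells of a type and less RNA per cell cannot be told apart.

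The Kiaa0100 homolog had an input level of 283, 296 and 284 CPM in KO libraries and 291, 281 and 292 CPM in WT libraries. Its means were 287 ± 7.03 and 288 ± 6.05 CPM (± SD, 3 libraries each). KO over WT, this was a log2 change of -0.003 (SE 0.058; edgeR, adjusted p = 0.998). KO input was at 99.8% of WT, beside RIP ratios that were higher in WT in 13 of 14 rows.

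Ofd1 and Ugt8a, the genes with the highest RIP ratios, had the largest positive estimates in KO input, and neither passed the test. Ofd1 input was 55.6, 66.8 and 53.1 CPM in KO and 45.8, 52.8 and 54.0 CPM in WT (KO over WT 0.20 on the log2 scale, SE 0.093; edgeR, adjusted p = 0.810). The lowest KO library lay under the highest WT library. Ugt8a input was 20.3, 22.8 and 15.8 CPM in KO and 11.4, 16.4 and 19.1 CPM in WT (KO over WT 0.33 on the log2 scale, SE 0.17; edgeR, adjusted p = 0.873). Its counts were 290 to 549 reads per library. For both genes WT replicate 1 had the lowest input level of the 6 input libraries and, in RIP, the highest ratio of the first row. What the deposited ratio is relative to is not given, and the part of the input level in it was not tested.

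The other 4 genes had negative estimates in KO input, within the spread of the libraries. Itih5 input was 182, 191 and 179 CPM in KO and 208, 183 and 206 CPM in WT (KO over WT -0.11 on the log2 scale, SE 0.066; edgeR, adjusted p = 0.912). Cdc42bpa had means of 179 ± 14.2 CPM in KO and 185 ± 13.2 CPM in WT, and Bfar 46.5 ± 3.15 CPM in KO and 47.9 ± 2.96 CPM in WT (± SD, 3 libraries each). Grk2 had 58.8, 59.6 and 76.2 CPM in KO and 65.6, 64.8 and 68.4 CPM in WT. KO replicate 3 was the highest of all 6 and the other KO libraries were the lowest.

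**Figure D5:**
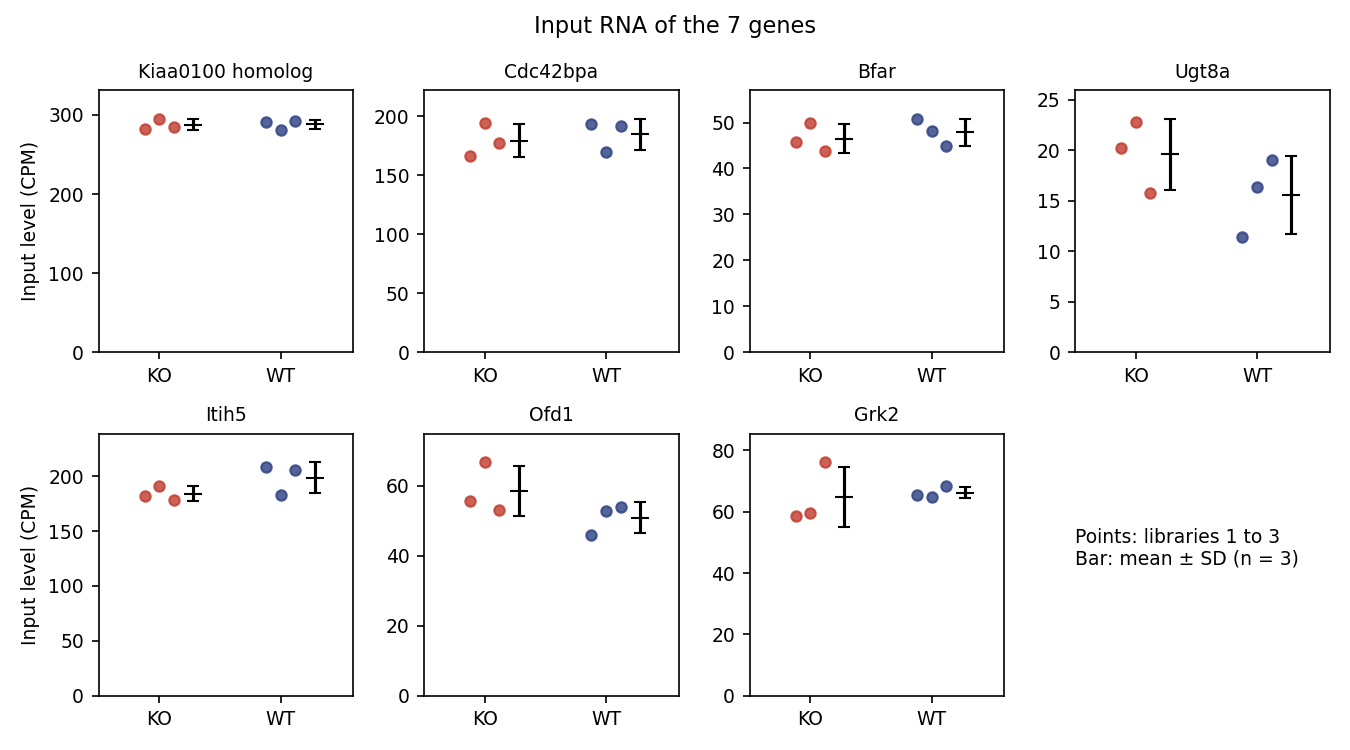
Input level (CPM, linear axis from 0) of the 7 genes in each KO and WT library. Points are libraries and bars are mean ± SD (n = 3). KO and WT values overlap in all 7 panels, and Ugt8a runs from 11.4 to 22.8 CPM.

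Per kilobase of exon, the Kiaa0100 homolog led with 32.7 ± 0.799 CPM per kb in KO and 32.7 ± 0.688 in WT, and Itih5 followed with 23.3 ± 0.844 in KO and 25.2 ± 1.79 in WT. Grk2 came next with 14.5 ± 2.20 in KO and 14.8 ± 0.430 in WT, then Ofd1 with 13.1 ± 1.63 in KO and 11.4 ± 0.984 in WT. Cdc42bpa had 8.33 ± 0.659 in KO and 8.59 ± 0.615 in WT, Bfar 7.17 ± 0.487 in KO and 7.40 ± 0.456 in WT, and Ugt8a 4.32 ± 0.780 in KO and 3.44 ± 0.852 in WT (± SD, 3 libraries each). Over the 6 libraries the ranges of Grk2 and Ofd1 overlapped, as did those of Cdc42bpa and Bfar, and the other neighbours in this order were apart. Against all tested genes the 7 lay between percentiles 55.8 (Ugt8a) and 94.2 (the Kiaa0100 homolog).

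The 7 genes were of middle to large size among the genes of the RIP table. Exonic length ran from 4453 bp in Ofd1 to 21522 bp in Cdc42bpa, where the median of the RIP genes was 3917 bp. All 7 lay above that median, at percentiles 56.5 to 99.4. The counting summed all annotated exons of a gene, so a single transcript can be shorter. Exon blocks ranged from 6 in Ugt8a to 42 in Cdc42bpa, against a median of 8. Among the 7, the longest gene did not have the most rows: Cdc42bpa had 1 row, while the Kiaa0100 homolog, with 8798 bp, had 14. Itih5, next in length with 7900 bp, had 5. Whether the number of rows follows length over all genes was not tested.

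Other annotated genes overlapped 4 of the 7. The end of Cdc42bpa overlapped by 366 bp with Coq8a, of the opposite strand, which makes a kinase-like protein of ubiquinone synthesis. Coq8a had 1 RIP row, with values other than those of Cdc42bpa. Cdc42bpa also holds ENSMUSG00000102194 on its own strand (2539 bp) and ENSMUSG00000103636 on the opposite strand (2671 bp). These had 0.857 and 0.988 CPM in KO input and 0.863 and 1.15 CPM in WT input, and no RIP row. The start of Ofd1 overlapped by 131 bp with Trappc2, of the opposite strand, a vesicle tethering factor with 9.02 CPM in KO input, 7.80 CPM in WT input and no RIP row. Bfar holds ENSMUSG00000079737 on its own strand, at 2.31 CPM in KO libraries and 2.57 CPM in WT libraries. The counts used no strand, so reads in these overlaps are uncertain, as are those of the small gene inside the Kiaa0100 homolog.

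Relatives and partners of the 7 genes were described from 7 lists with 46 genes, of which 42 passed the filter in input. None was called (0 of 42, edgeR). An unadjusted p under 0.05 was found for 2 of the 42, where 5.9% of all tested genes had one. The median log2 change was -0.007. Of the 46 genes, 19 were in the RIP table, with 42 rows. Of these rows 5 (11.9%) had WT above KO without overlap, where 8.4% of all rows did, and 2 (4.76%) had KO above WT without overlap, where 6.75% did. The median ratio of their rows was 1.05.

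One list held Cdc42 and kinases akin to Cdc42bpa or tied to Cdc42. In it Cdc42bpb, a close relative of Cdc42bpa, had 7 RIP rows, 1 of them with WT above KO without overlap. The highest ratio among the rows of Cdc42bpb was 2.19, in a row whose groups overlapped. Its input level was 143 ± 4.28 CPM in KO and 140 ± 6.24 CPM in WT. The largest estimates of that list in input were those of Dmpk and Pak2, with log2 changes of -0.15 and -0.13 (adjusted p = 0.936 and 0.903, edgeR). Of the bridge-like lipid transfer family, Bltp3b had a row with 0.971, 1.11 and 1.10 in KO and 1.76, 1.65 and 2.14 in WT, a ratio of 1.75 without overlap. It was the only row of the 46 genes that was both apart and above 1.5-fold, a combination found in 2.59% of all rows. Bltp1, a larger member, had 4 rows, none without overlap. In input, Bltp3a and Vps13c had the largest estimates of the family, -0.18 and 0.09 (adjusted p = 0.810 and 0.975, edgeR).

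The relatives of Itih5 had low input counts. Itih1, Itih3, Itih4 and the light chain gene Ambp failed the low-count filter, with means of 0.588 CPM or less, and Itih2 had 1.82 ± 0.544 CPM in KO and 2.01 ± 0.862 CPM in WT (± SD, 3 libraries each). Its estimate was the largest of the 4 tested genes of that list (log2 change -0.13, adjusted p = 0.987, edgeR), followed by that of Tnfaip6, which transfers heavy chains to hyaluronan (0.06, adjusted p = 0.992). Has2, a hyaluronan synthase, had 31.5 ± 2.43 CPM in KO and 30.2 ± 0.948 CPM in WT.

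Enzymes that act on the lipids made by Ugt8a, or on their ceramide, were measured too. Fa2h, which hydroxylates the fatty acid of galactolipids, and Gal3st1, which adds sulfate to them, stood near 1 CPM (0.890 ± 0.149 and 1.18 ± 0.286 in KO, 1.06 ± 0.582 and 1.05 ± 0.430 in WT). Galc, which breaks galactolipids down, had 42.1 ± 2.63 CPM in KO and 43.0 ± 1.82 CPM in WT. The largest estimates of the list were -0.27 for Fa2h and 0.22 for Arsa, which removes the sulfate (adjusted p = 0.979 and 0.884, edgeR).

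The lists around Ofd1, Grk2 and Bfar, with 8, 6 and 5 tested genes, each held 0 called genes. Only Bcap31 had an unadjusted p under 0.05 (edgeR), where 5.9% of all tested genes had one. At the centriole, Lca5 and Ift88, both of cilia, had the largest estimates, 0.19 and 0.11 (adjusted p = 0.937 and 0.975, edgeR). Among receptor kinases and arrestins these were Arrb1 and Grk3, at -0.26 and -0.16 (adjusted p = 0.975 and 0.957, edgeR). Of the apoptosis genes at the endoplasmic reticulum they were Bax, a pore former of mitochondria, and Bcap31, a membrane protein of the reticulum, at -0.21 and -0.18 (adjusted p = 0.893 and 0.735, edgeR).

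Markers of other cell types were summed in each library. The summed level of 3 erythroid genes, Hba-a1, Hbb-bs and Alas2, ran from 6101 to 8017 CPM in KO libraries and from 8478 to 11928 CPM in WT libraries. For 7 germ cell genes the sums were 224 to 263 CPM in KO and 175 to 227 CPM in WT. No gene of either list was called (edgeR). An unadjusted p under 0.05 was found for 2 of 3 tested erythroid genes and 3 of 6 tested germ cell genes, where 5.9% of all tested genes had one. The estimates of Hba-a1, Hbb-bs and Alas2 were all lower in KO, with log2 changes of -0.59, -0.60 and -0.55. For Alas2 the unadjusted p was 0.085 (edgeR). Of the germ cell genes, those of Ddx4 and Sycp3 were higher in KO, and that of Figla, an oocyte transcription factor, was lower, with 2.13 ± 0.509 CPM in KO libraries and 3.92 ± 1.52 CPM in WT libraries (± SD, 3 libraries each). Pregranulosa sums, over 6 genes, were 631 to 683 CPM in KO and 619 to 664 CPM in WT. The sums of 2 macrophage markers, Cd68 and Adgre1, were 25.7 to 26.2 CPM in KO libraries and 22.4 to 27.8 CPM in WT libraries. Stromal sums, over 4 genes, were 13653 to 15015 CPM in KO and 12900 to 16447 CPM in WT. Endothelial sums, over 3 genes, were 256 to 287 CPM in KO and 276 to 297 CPM in WT. Of the endothelial genes only Cdh5, with a lower estimate in KO, had an unadjusted p under 0.05 (edgeR). The part of cell makeup in the RIP differences was not tested.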

How the data were processed

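Gene-level counts of the input libraries were deposited by the authors as raw numbers and, per the file headers, come from featureCounts 1.6.3 over exons with Ensembl release 104, with no option for strand. The RIP table holds a fold enrichment ratio deposited by the authors, with no statement of what it is relative to. The submitters' processing notes name BWA 0.7.12 and MACS2 2.1.0, beside DESeq2 1.26.0 and the build GRCm38, without saying what each was used for. Coordinates are those of the count files, whose annotation release belongs to a later build.

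The test of input was edgeR 4.0.16 under R 4.3.3 (TMM, filterByExpr, quasi-likelihood, KO over WT), called at a Benjamini-Hochberg adjusted p under 0.05. CPM used the TMM factors. RIP rows with a mean of at least 1 were tested with limma 3.58.1 on log2(value + 1), centred by column medians. Alternatives included DESeq2 1.42.0. On simulated counts of 23698 genes, edgeR recovered 26 of 50 genes changed 1.5-fold and 35 of 50 changed 2-fold, with 17 false calls, so small changes can be missed. The p-values reflect only how these pools, of 5 ovary pairs each, vary.

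Names of the 7 genes came with their identifiers; those of other genes were taken as their known Ensembl identifiers. Of 89 pairs of name and identifier, those of the 7 genes included, 88 had the same chromosome, a start within 1.5 Mb and a span within a factor of 2 in RefSeq (GRCm38.p6), which holds 0 Ensembl identifiers. The 1 that is left, the macrophage marker Csf1r, was not used here. Its span was within that factor, but pairs on its chromosome outside the 7 genes were left out by a separate rule. The genes and lists were chosen with earlier results of these data known. Named were all 7 genes with all rows, overlapping genes, the 4 most similar RIP rows and, in each list of relatives with no called gene, the 2 with the largest change, besides members whose level or row is described, which were chosen after their values were seen.

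Same-numbered KO and WT libraries did not deviate together (correlations of -0.071, -0.034 and -0.044 in input and -0.60, -0.34 and -0.22 in RIP), so the numbers were not used to pair samples.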

Additional observations from a re-analysis of the deposited data

How the results depend on the processing

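The count of 0 called genes among the 7 in input was also 0 with RLE factors, DESeq2, no filter on low counts, the replicate block and each library left out, and their lowest adjusted p over these settings was 0.656 (Ugt8a). The count of all called input genes, 10, was 37 with DESeq2, 113 with no filter on low counts and 20 with the replicate block, and ran from 5 to 37 with a library left out; the cause was not tested. The count of 0 called RIP rows was 1 where low values were not filtered, a setting that also tested the Fmr1 row. Which row was called there is not given here. The count was 0 with the replicate block, other pseudocounts, no centring, quantile normalization, a stricter filter and each library left out. The RIP values chose the genes, so their direction under other settings is no check of it. Beside the rows of the Kiaa0100 homolog named above, the fifth row of Itih5, at 0.995, lay on the other side of 1 in 4 settings, up to 1.13, and the fourteenth row of the Kiaa0100 homolog was at 1.68 by group medians. Differences on the log2(value + 1) scale depend on the pseudocount, so ratios of means were printed. The read depth behind the RIP ratios is unknown, and 3 libraries a group limit the precision.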
